A study of Mus musculus with 4 samples.

Results

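C/D box small nucleolar RNAs (snoRNAs) are short nucleolar RNAs, and the genes described here are those whose mouse symbol begins with Snord. The symbol matched 99 of the 50593 genes in the expression table of the study, and all 99 identifiers were found in the mouse annotation. RNA sequencing was done on sciatic nerve of mice aged 6 months. The HSF WT group held animals heterozygous for deletion of Hsf-1, the gene of a heat shock transcription factor, which carried no transgene. The HSF V30M group shared the heterozygous Hsf-1 deletion and carried human transthyretin (TTR) with the V30M change, which causes hereditary amyloid neuropathy, on a background without the mouse Ttr gene. The groups thus differed in both the human transgene and the mouse gene, and these cannot be told apart. Both were of the Sv/129 background by the methods (129S1/SvImJ in the labels). The labels list 2 samples per group, titled as mice, while the methods give an n of 4 for RNA sequencing and do not say whether this is per group. The promoter of the transgene was not given in the sources used here.

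The table gave 1 value per gene and group, in FPKM, which is fragments per kilobase of transcript scaled to the number of mapped fragments, and no value per mouse. The spread between mice is therefore unknown, and every difference is a comparison of 2 group values without a test. Ratios are log2((HSF V30M + 1)/(HSF WT + 1)), and only genes with a mean of at least 1 FPKM over both groups were given one. Positive values are higher in HSF V30M.

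C/D box snoRNAs are named after a pair of conserved sequence elements, box C near the beginning and box D near the end, which fold together and bind the core proteins of a ribonucleoprotein particle. Most of them pair with ribosomal RNA (rRNA) through the bases before a D box and direct fibrillarin to methylate a ribose there, while a few are needed for cleavage and folding of the rRNA precursor. In mammals nearly all are released from introns of host genes, many of which encode ribosomal proteins or nucleolar proteins, and a few have promoters of their own.

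The sequences of Snord83b and Snord22, which are among the members with the highest mean level, and of the 2 largest rises and 2 largest falls among members above 0 in both groups with a mean of at least 10 FPKM show the elements in question and the size of these RNAs. They are the GENCODE M21 transcripts of mouse genome GRCm38, written 5′ to 3′ as DNA, with the exact letters of box C (TGATGA) and of the last box D (CTGA) in capitals where they occur.
Snord83b: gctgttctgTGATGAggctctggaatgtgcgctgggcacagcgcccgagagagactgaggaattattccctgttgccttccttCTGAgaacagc
Snord22: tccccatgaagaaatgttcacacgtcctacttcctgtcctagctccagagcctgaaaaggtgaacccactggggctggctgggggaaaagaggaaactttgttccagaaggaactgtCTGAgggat
Snord88c: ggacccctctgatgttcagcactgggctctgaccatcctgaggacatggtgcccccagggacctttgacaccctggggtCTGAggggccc
Snord23: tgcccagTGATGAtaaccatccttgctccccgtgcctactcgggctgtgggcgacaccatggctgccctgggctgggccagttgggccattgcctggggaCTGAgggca
Snord16a: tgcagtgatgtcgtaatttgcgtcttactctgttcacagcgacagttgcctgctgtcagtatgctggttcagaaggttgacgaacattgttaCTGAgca
Snord53: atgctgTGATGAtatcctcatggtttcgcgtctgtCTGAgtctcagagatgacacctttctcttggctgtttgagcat
Snord83b lies at chr15:80078498-80078591 on the minus strand, in an intron of the ribosomal protein gene Rpl3. Snord22 lies at chr19:8725866-8725991 on the plus strand, within the noncoding host Snhg1, where it overlaps an annotated exon. Snord88c lies at chr7:44249852-44249941 on the plus strand in an intron of 2410002F23Rik, and Snord23 at chr7:15938762-15938870 on the minus strand in an intron of Nop53. Snord16a lies at chr9:64175423-64175521 on the plus strand within Rpl4, overlapping an annotated exon. Snord53 lies at chr17:71640879-71640956 on the plus strand in an intron of Wdr43. Snord22, Snord88c and Snord16a do not hold the exact letters of box C, and in Snord53 the last exact CTGA begins at base 36 of 78.

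The box letters were searched in every member. TGATGA lay within the first 20 bases of 70 of the 99 members, 70.7%, against 4.27% of 6439 other genes with a single transcript in the same range of lengths. CTGA lay within the last 20 bases of 97 members, 98.0%, against 12.8% of the other genes. Both were present in 68 members. Of 41 H/ACA box genes (symbols beginning with Snora), the class that guides pseudouridylation, none had TGATGA at this place. On the opposite strand TGATGA occurred anywhere in 1 member and in 2.41% of the other genes. The members were 64 to 238 bases long with a median of 84 bases, and only 5 exceeded 120 bases.

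By position, 57 members lay within a protein-coding gene on the same strand and 39 within a noncoding gene. In 55 of these the member lay wholly in introns, and in 41 it overlapped an exon of at least 1 annotated transcript of the host, retained introns included. Snord13, Snord118 and Snord104 had no host. In the table, 95 members shared their locus entry with other genes, and 4 were alone in it (Snord13, Snord118, Snord104 and Snord116l12), so positions are those of the annotation. For a member inside a host, reads of the mature snoRNA and of the unspliced host transcript cannot be told apart at this level.

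Of the 99 members, 76 had the status OK in the authors' run and 23 were marked NOTEST. Among the latter, 21 were listed at 0 in both groups and 2 were above 0. Hence 78 members had a mean of at least 1 FPKM and were given a ratio. No member fell near that minimum, since the lowest with a ratio, Snord116l12 and Snord116l14, had a mean of 9.0 FPKM and the others were at 0. Above 0 in both groups were 68 members, 9 were at 0 in HSF WT only and 1 was at 0 in HSF V30M only. The symbol Snord80 belongs to 2 overlapping genes, which share nearly all bases and are counted separately. One member, Snord43, is annotated as a microRNA gene.

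The size of these RNAs governs how an FPKM value is read. Certain values recurred exactly among short genes of the same length, and a single curve of length placed 60 of 74 recurring values within 2% of the worth of 1 fragment. The curve was chosen to place as many of these same values as possible, so this number describes the fit and is no separate check of it. At 71 bases 1 fragment was worth 36.3 to 42.9 FPKM in HSF V30M and 44.9 to 60.4 FPKM in HSF WT. At 238 bases it was worth 0.749 to 0.884 FPKM in HSF V30M and 0.924 to 1.24 FPKM in HSF WT. The ranges come from 2 recurring steps per group, taken here to be 2 libraries of unequal depth, which was not tested, with the larger step 1.18 times the smaller in HSF V30M and 1.35 times in HSF WT. An FPKM of the same size therefore rested on far fewer fragments in a shorter member, and an order of members by FPKM is not their order by fragments. Of the members above 0, 12 in HSF V30M and 6 in HSF WT rested on fewer than 3 fragments by the lower estimate. At least 100 fragments stood behind 29 members in HSF V30M and 19 in HSF WT.

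**Figure D1:**
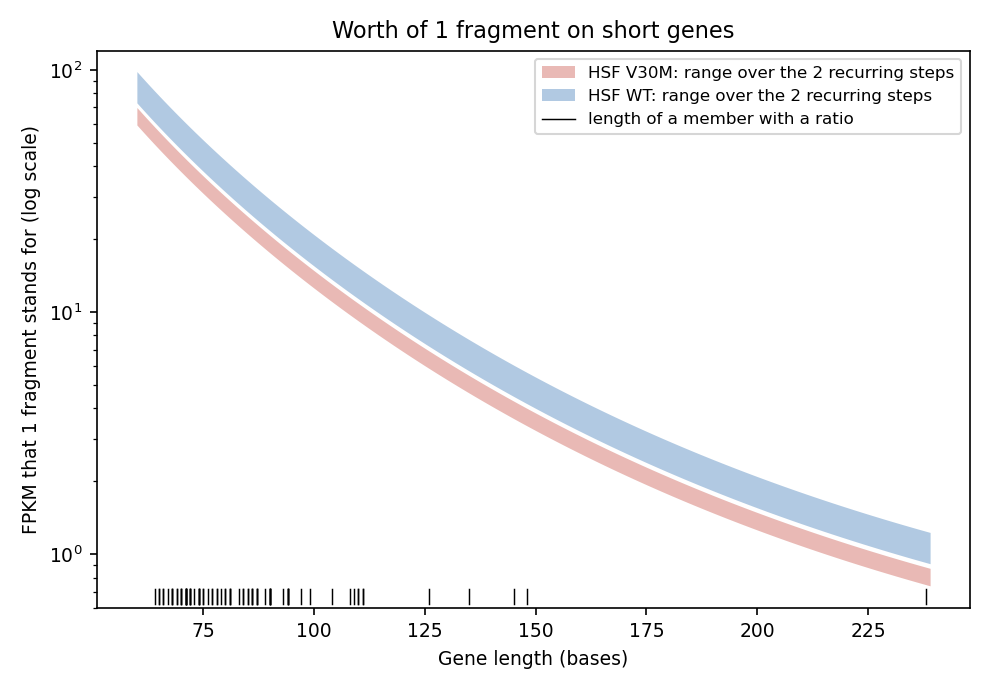
FPKM that 1 fragment stands for (vertical axis, log scale) against gene length in bases (horizontal axis) in HSF V30M and HSF WT, each band spanning the 2 recurring steps of the group. Ticks mark the lengths of the 78 members with a ratio. At 71 bases a fragment was worth 36.3 to 42.9 FPKM in HSF V30M, and at 238 bases 0.749 to 0.884 FPKM.

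The C/D box snoRNA genes as a class had higher values in HSF V30M than in HSF WT. Their median log2 ratio was 0.68, with quartiles of 0.18 and 1.86, whereas the median over all 15620 genes with a mean of at least 1 FPKM was 0.00. Values were higher in HSF V30M for 61 of the 78 members and lower for 17. At least 2-fold higher were 31 members, 39.7%, against 3.98% of all genes, and at least 2-fold lower were 6 members, 7.69%, against 3.94% of all genes. Of the 31, 8 were at 0 in HSF WT with a value in HSF V30M too low to show a difference at this depth, and without them 23 were at least 2-fold higher. Over the 68 members above 0 in both groups, the median log2 ratio was 0.53, with 22 at least 2-fold higher (2.47% of all such genes were) and 5 at least 2-fold lower (2.41% of all such genes were). The 78 members had a median of 1432 FPKM in HSF V30M and 993 FPKM in HSF WT.

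Most genes in the table are far longer than the members, so other short genes give a closer comparison. The 781 other genes with a single transcript under 240 bases and a mean of at least 1 FPKM include snoRNA genes outside the members. Of the 781, 39.6% were at least 2-fold higher and 30.2% at least 2-fold lower, with a median log2 ratio of 0.32. The share of rises among the members was thus near that of other short genes, and the share of falls was smaller. Many of those genes rest on a few fragments. With at least 10 estimated fragments in both groups, 49 members had a median log2 ratio of 0.57, with 15 at least 2-fold higher (30.6%) and 3 lower (6.12%), against 26.8% and 5.49% of 164 other short genes, whose median was 0.41. The 164 were themselves largely snoRNA genes. Among the 164, 30 Snora genes had a median of 0.75, with 13 higher and 0 lower. A further 75 were other annotated snoRNA genes, with a median of 0.49, 19 higher and 4 lower. Only 50 of the 164 were neither snoRNA nor small Cajal body RNA. These 50 had a median of 0.01, with 9 higher (18%) and 5 lower (10%). The higher values in HSF V30M were thus shared by the C/D box and H/ACA box classes. Whether the classes differed from other short genes beyond the spread between mice was not tested.

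**Figure D2:**
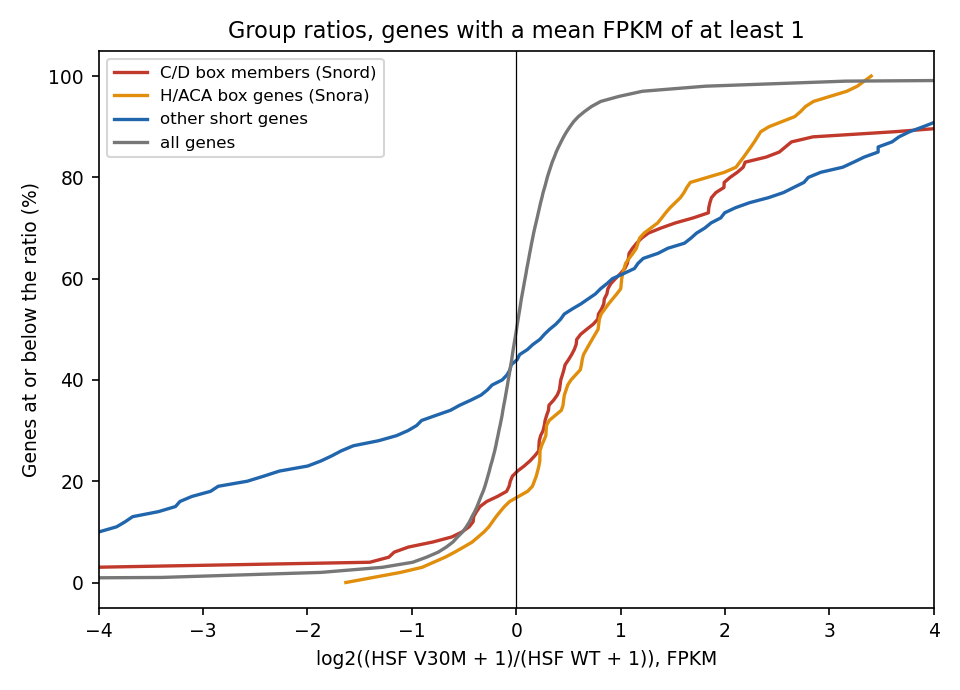
Share of genes at or below a given log2 ratio, positive where HSF V30M is higher (horizontal axis, cut at 4 on either side), for 78 C/D box genes, 39 Snora genes, 781 other short genes and all 15620 genes with a mean of at least 1 FPKM. The other short genes include the Snora genes. The Snord and Snora curves lie to the right of 0 for most of their length, and the curve of all genes crosses 50% at 0.00.

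The members with the highest FPKM held most of the summed level. Snord55 had 148641 FPKM in HSF V30M and 40976 FPKM in HSF WT, a log2 ratio of 1.86, on at least 4776 and 936 fragments in that order. Snord83b had 116687 FPKM in HSF V30M and 67517 FPKM in HSF WT, a log2 ratio of 0.79, on at least 6456 and 2654 fragments. Snord22 had 62714 and 46591 FPKM in that order, a log2 ratio of 0.43, on at least 9095 and 4802 fragments. All were higher in HSF V30M, Snord55 by the widest margin, and by fragments in HSF V30M their order was the reverse of that by FPKM.
Snord71, in an intron of Ap1g1, had 31493 FPKM in HSF V30M and 24283 FPKM in HSF WT, a log2 ratio of 0.38, on at least 1268 and 695 fragments. Snord89 had 26813 FPKM in HSF V30M and 12908 FPKM in HSF WT, a log2 ratio of 1.05, on at least 2472 and 846 fragments. Snord15b, hosted by Rps3, had 19819 FPKM in HSF V30M and 18485 FPKM in HSF WT, a log2 ratio of 0.10, on at least 4620 and 3062 fragments. The last of these is the smallest difference among the 10 members of highest mean FPKM.
Snord110, in an intron of Nop56, had 21367 FPKM in HSF V30M and 11672 FPKM in HSF WT, a log2 ratio of 0.87, on at least 438 and 170 fragments. Snord100, hosted by Rps12, had 12892 FPKM in HSF V30M and 11041 FPKM in HSF WT, a log2 ratio of 0.22, on at least 340 and 207 fragments. Its exact binomial 95% interval for the fold, 0.979 to 1.39, included 1. Such intervals are computed from the lower estimate of fragments, cover counting error only and leave out the spread between mice.

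Snord17 was the exception among the most abundant members. It had 14514 FPKM in HSF V30M and 32393 FPKM in HSF WT, a log2 ratio of -1.16, and its fold of 0.448 had a counting interval of 0.439 to 0.457. At 238 bases it is the longest member, and it rested on the most fragments of all, at least 16420 in HSF V30M and 26043 in HSF WT. It lies in an intron of Snx5, which had 15.9 FPKM in HSF V30M and 22.7 FPKM in HSF WT. Snord17 made up 2.19% of the summed FPKM of the members in HSF V30M and 8.22% in HSF WT. Weighted by effective length, that is in proportion to fragments within a group, it made up 29.2% in HSF V30M and 60.3% in HSF WT.

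The direction of the class total depended on this weight. The 78 members summed to 662238 FPKM in HSF V30M against 394228 FPKM in HSF WT, a ratio of 1.68. Of these sums the 5 highest members made up 59.1% for HSF V30M and 50.9% for HSF WT. With FPKM multiplied by effective length, which keeps the authors' scaling between the groups, the ratio was 0.924, below 1, and without Snord17 it was 1.65 on this scale and 1.79 on the FPKM scale. Estimated fragments with no scaling between the groups, Snord17 included, summed to 56202 to 66370 in HSF V30M and 43218 to 58189 in HSF WT. The weighting was chosen after the values had been seen.

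**Figure D3:**
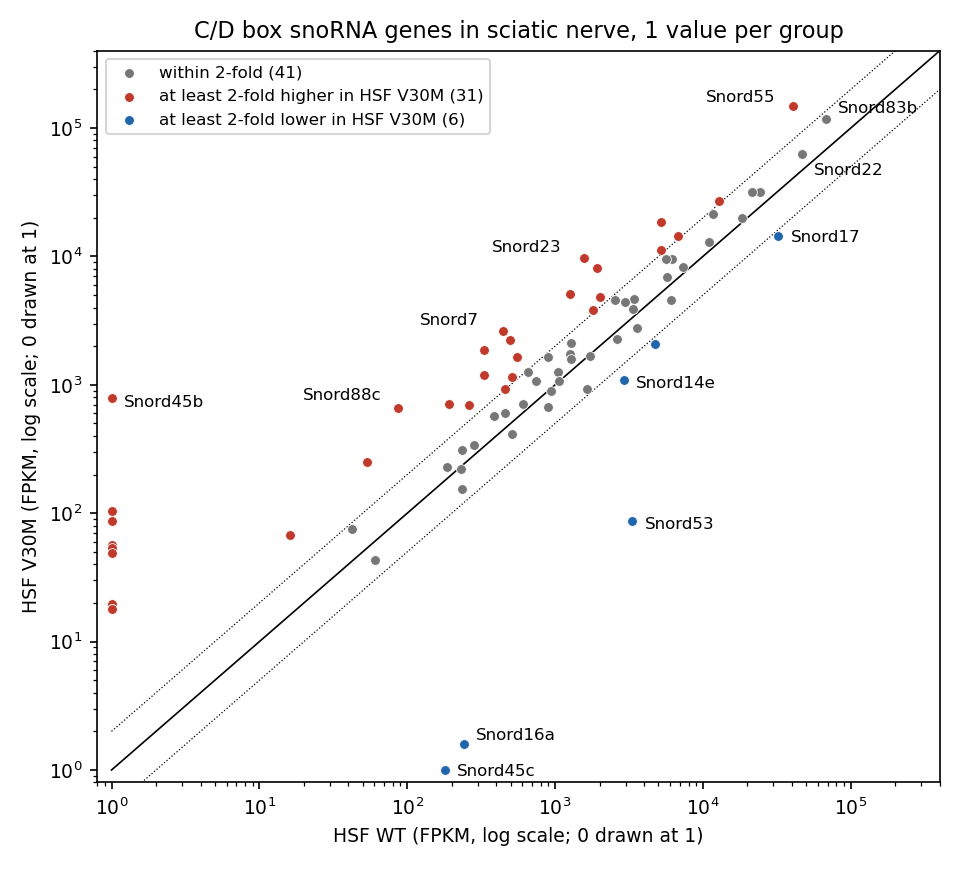
FPKM of the 78 C/D box snoRNA genes with a ratio in HSF WT (horizontal axis) and HSF V30M (vertical axis), both on log scales with 0 drawn at 1. The solid line marks equal values and the dotted lines a difference of 2-fold. In HSF V30M, 31 members are at least 2-fold higher and 6 at least 2-fold lower, with Snord17 the most abundant of the latter.

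Among members above 0 in both groups with a mean of at least 10 FPKM, the largest rises were those of Snord88c, Snord23, Snord7, Snord37 and Snord59a. Snord23 had 9715 FPKM in HSF V30M and 1560 FPKM in HSF WT, a log2 ratio of 2.64, and its fold of 6.23 had a counting interval of 5.05 to 7.75. Its host Nop53, a ribosome biogenesis factor, had 78.4 FPKM in HSF V30M and 74.3 FPKM in HSF WT. Snord7 had 2634 FPKM in HSF V30M and 445 FPKM in HSF WT, a log2 ratio of 2.56, with a counting interval for the fold of 3.67 to 10.1. These 2 rises rested on at least 99.2 and 19.4 fragments in the lower group.
Snord88c had 661 FPKM in HSF V30M and 87.2 FPKM in HSF WT, a log2 ratio of 2.91, the largest under these limits, but on about 3 fragments in HSF WT. Its counting interval for the fold was 2.37 to 38.7. Snord88c differs from Snord88a of the same host at 5 of 90 bases, so fragments may have been divided between them, and their sum had 1581 FPKM in HSF V30M and 546 FPKM in HSF WT, a log2 ratio of 1.53. Snord37, in an intron of the elongation factor gene Eef2, had 1864 FPKM in HSF V30M and 332 FPKM in HSF WT, a log2 ratio of 2.49. Its counting interval for the fold was 1.99 to 21.9.
Snord59a had 249 FPKM in HSF V30M and 53.5 FPKM in HSF WT, a log2 ratio of 2.20. The latter stood for about 1 fragment, and the interval of 0.597 to 209 included 1. Of the 22 members at least 2-fold higher with values above 0 in both groups, 20 had a counting interval wholly above 1.

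Under the same limits the largest falls were those of Snord16a, Snord53, Snord14e, Snord57 and Snord17. Snord53 had 87.1 FPKM in HSF V30M and 3332 FPKM in HSF WT, a log2 ratio of -5.24. This compares about 3 fragments with at least 73.2, and the fold of 0.0261 had a counting interval of 0.00527 to 0.0794. The other member in Wdr43, Snord92, went the opposite way with 1161 FPKM in HSF V30M and 513 FPKM in HSF WT, while Wdr43 itself had 7.48 and 8.77 FPKM.
Snord16a had 1.6 FPKM in HSF V30M, less than the worth of 1 fragment, and 241 FPKM in HSF WT. Set against a floor of 3 fragments, 45.9 FPKM, it was at least 5.25-fold lower in HSF V30M, and the log2 ratio of -6.54 depends on the pseudocount. Snord57, in the nucleolar protein gene Nop56, had 2088 FPKM in HSF V30M and 4747 FPKM in HSF WT, a log2 ratio of -1.18, with a counting interval for the fold of 0.304 to 0.631. Of the 4 falls with values of at least 1 fragment in both groups, all 4 had a counting interval wholly below 1.

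Members listed at 0 in 1 group mostly rested on few fragments. Snord45b had 783 FPKM in HSF V30M and was at 0 in HSF WT, where the floor of 3 fragments is 181 FPKM, so it was at least 4.32-fold higher in HSF V30M. Snord45c, from the same host Rabggtb, was at 0 in HSF V30M and had 180 FPKM in HSF WT, against a floor of 89.8 FPKM, so it was at least 2.0-fold lower. The bounds leave out the counting error of the group above 0, which for Snord45c rested on 4.27 to 5.74 fragments. Snord38a had 105 FPKM in HSF V30M and was at 0 in HSF WT, under the floor of 181 FPKM, and no difference was detectable at this depth. The same holds for Snord93, Snord98, Snord1a, Snord64, Snord90, Snord116l12 and Snord116l14, whose values in HSF V30M lay between 18 and 86.4 FPKM.

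**Figure D4:**
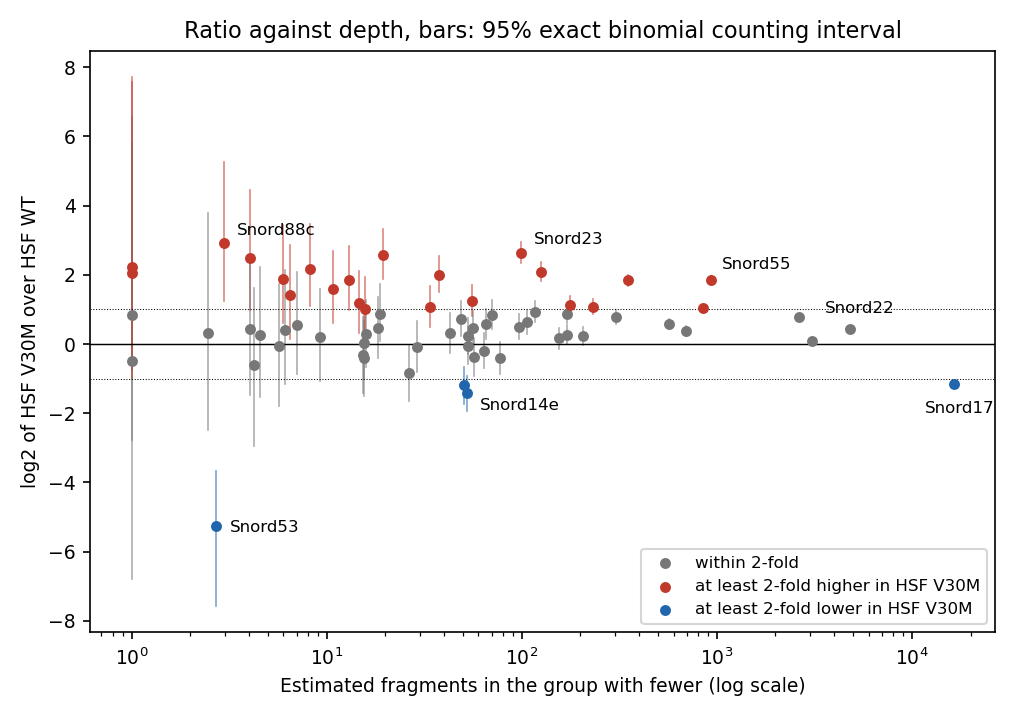
Log2 of the FPKM ratio between the groups, positive where HSF V30M is higher (vertical axis) against the lower estimate of fragments in the group with fewer (horizontal axis, log scale). Shown are the 67 members with a counting interval, which rest on about 1 fragment or more in each group. Bars are exact binomial 95% intervals for counting error, dotted lines mark 2-fold, and the 19 members with at least 100 fragments in both groups lie between -1.16 and 2.09.

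The best-covered members also had mostly higher values in HSF V30M. The 19 members with at least 100 fragments in both groups had a median log2 ratio of 0.78, with 6 at least 2-fold higher and 1, Snord17, at least 2-fold lower. Of 68 other short genes with this depth, 26.5% were at least 2-fold higher and 4.41% at least 2-fold lower, with a median of 0.39. Those genes were not restricted to genes other than snoRNAs. Across the 68 members above 0 in both groups, the rank correlation of the log2 ratio was 0.24 with length, 0.12 with estimated fragments and 0.05 with mean FPKM. These are descriptions over members that share the same libraries.

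The list of snoRNAs for processing of the rRNA precursor, which also held Snord13, a guide of rRNA acetylation, had 7 members in the table. Snord22, or U22, acts in maturation of the small subunit rRNA, and its values are given above. The sequences of 4 others, printed because the place of box C differs among them, are as follows, in the same notation.
Snord118: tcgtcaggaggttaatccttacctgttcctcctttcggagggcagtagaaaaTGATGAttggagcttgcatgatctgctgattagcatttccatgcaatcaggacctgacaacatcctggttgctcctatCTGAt
Snord14c: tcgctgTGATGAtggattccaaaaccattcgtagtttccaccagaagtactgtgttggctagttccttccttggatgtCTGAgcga
Snord14d: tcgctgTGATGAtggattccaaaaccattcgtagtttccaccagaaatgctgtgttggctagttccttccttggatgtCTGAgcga
Snord14e: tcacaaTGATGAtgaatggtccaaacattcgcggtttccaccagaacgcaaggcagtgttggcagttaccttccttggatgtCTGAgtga
Snord118 lies at chr11:69073427-69073561 on the plus strand, outside any host. Snord14c lies at chr9:40803583-40803668, Snord14d at chr9:40803995-40804080 and Snord14e at chr9:40804748-40804837, all on the plus strand within Hspa8, the gene of a constitutive heat shock chaperone. Box C begins at base 7 in the Snord14 members and at base 53 in Snord118.

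Snord13, or U13, which guides acetylation of the small subunit rRNA, had 9617 FPKM in HSF V30M and 5594 FPKM in HSF WT. Its log2 ratio was 0.78, and its fold of 1.72 had a counting interval of 1.5 to 1.97. Snord118, or U8, required for maturation of the large subunit rRNA, had 1064 FPKM in HSF V30M and 749 FPKM in HSF WT, a log2 ratio of 0.51, with a counting interval for the fold of 1.11 to 1.83. Since neither has a host, their values do not share reads with a host transcript.
The Snord14 (U14) genes take part in small subunit rRNA processing and differed in direction. Snord14c had 5055 FPKM in HSF V30M and 1269 FPKM in HSF WT, a log2 ratio of 1.99. Snord14d had 6949 FPKM in HSF V30M and 5759 FPKM in HSF WT, a log2 ratio of 0.27. Snord14e had 1088 FPKM in HSF V30M and 2916 FPKM in HSF WT, a log2 ratio of -1.42, with a counting interval for the fold of 0.262 to 0.527.
Snord14c and Snord14d differ at 2 of 86 bases, so fragments may have been divided between them, and their sum had 12004 FPKM in HSF V30M and 7028 FPKM in HSF WT, a log2 ratio of 0.77. Snord14a, in Rps13, was at 0 in both groups. Of all 78 members 61 were higher in HSF V30M and 17 lower. Of the 6 members of the processing list with a ratio, Snord13 included, 5 were higher and 1 lower, and their median log2 ratio was 0.47. Past 2-fold were Snord14c upward, though not its sum with Snord14d, and Snord14e downward, against 26.8% and 5.49% of other short genes with at least 10 fragments in both groups. Of the 50 such genes that were neither snoRNA nor small Cajal body RNA, 18% were higher and 10% lower by this fold.

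The Rpl13a intron set, which has been studied for its part in lipotoxic and oxidative stress, was higher in HSF V30M for all 4 members. Of all 78 members 61 were higher, as were 119 of 164 other short genes with at least 10 fragments in both groups. Past 2-fold were 2 of the 4, against 26.8% of those short genes. Most of the 164 were snoRNA genes. Of the 50 that were neither snoRNA nor small Cajal body RNA, 25 were higher, and 18% were at least 2-fold higher. Snord32a had 31927 FPKM in HSF V30M and 21360 FPKM in HSF WT, a log2 ratio of 0.58. Snord33 had 4794 FPKM in HSF V30M and 2020 FPKM in HSF WT, a log2 ratio of 1.25. Snord34 had 3886 FPKM in HSF V30M and 3341 FPKM in HSF WT, a log2 ratio of 0.22.
The fourth, Snord35a, had 14322 FPKM in HSF V30M and 6806 FPKM in HSF WT, a log2 ratio of 1.07. Their host Rpl13a had 689 FPKM in HSF V30M and 454 FPKM in HSF WT, a log2 ratio of 0.60. The counting interval of Snord34, 0.817 to 1.67, included 1, while those of the others lay above it.

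The snoRNAs of the imprinted Prader-Willi region, made from the paternal allele and known mainly from neurons, were mostly listed at 0. Of 19 genes matched by family, 16 were at 0 in both groups, among them Snord107 and 15 of the 17 Snord116 genes. Snord64 had 49.4 FPKM in HSF V30M, about 1 fragment, and was at 0 in HSF WT. Snord116l12 and Snord116l14 each had 18 FPKM in HSF V30M, also about 1 fragment, and were at 0 in HSF WT. The 17 Snord116 genes hold 4 distinct sequences, of which the commonest occurs in 14 genes, so a fragment lying within that sequence cannot be placed in a single gene of the 14. How the authors' run treated fragments with several matches was not given in the sources used here, and a listed 0 is not read as absence of the RNA.

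In some hosts the members differed from each other and from the host. In 13 hosts with at least 2 members above 0 in both groups, members were at least 2-fold apart in 10, lay on opposite sides of 0 in 8, and had at least 1 pair of counting intervals that did not overlap in 6. In 3 of the 8, Hspa8, Nop56 and Wdr43, members had counting intervals wholly on opposite sides of 1. Within Nop56, Snord57 and Snord110 had log2 ratios of -1.18 and 0.87, and within Hspa8 those of Snord14e and Snord14c were -1.42 and 1.99. Within Rpl23a, Snord4a had 2244 FPKM in HSF V30M and 497 FPKM in HSF WT, whereas Snord42a had 4578 FPKM in HSF V30M and 6074 FPKM in HSF WT, with a counting interval for the fold of 0.546 to 1.04 that included 1. These 2 were chosen after their values had been seen. How often unrelated short genes lie as far apart was not computed.
The hosts were described in the same way. Over 44 hosts with a mean of at least 1 FPKM, the median log2 ratio was 0.05, with 2 hosts at least 2-fold higher and 1 lower, numbers near the shares of 3.98% and 3.94% over all genes. These were Rps3a1, with 275 FPKM in HSF V30M and 21.6 FPKM in HSF WT, Snhg1, with 1263 and 374 FPKM, and 2410006H16Rik, with 24.4 and 52.2 FPKM. Snord73a within Rps3a1 had 1743 FPKM in HSF V30M and 1263 FPKM in HSF WT, a log2 ratio of 0.46, against 3.61 for its host. The rank correlation between member and host log2 ratios was 0.22 over 64 members, which share hosts and libraries. Member and host values may also share reads where a member overlaps an annotated exon, as Snord22 does in Snhg1. How far this moved the host values was not tested.

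**Figure D5:**
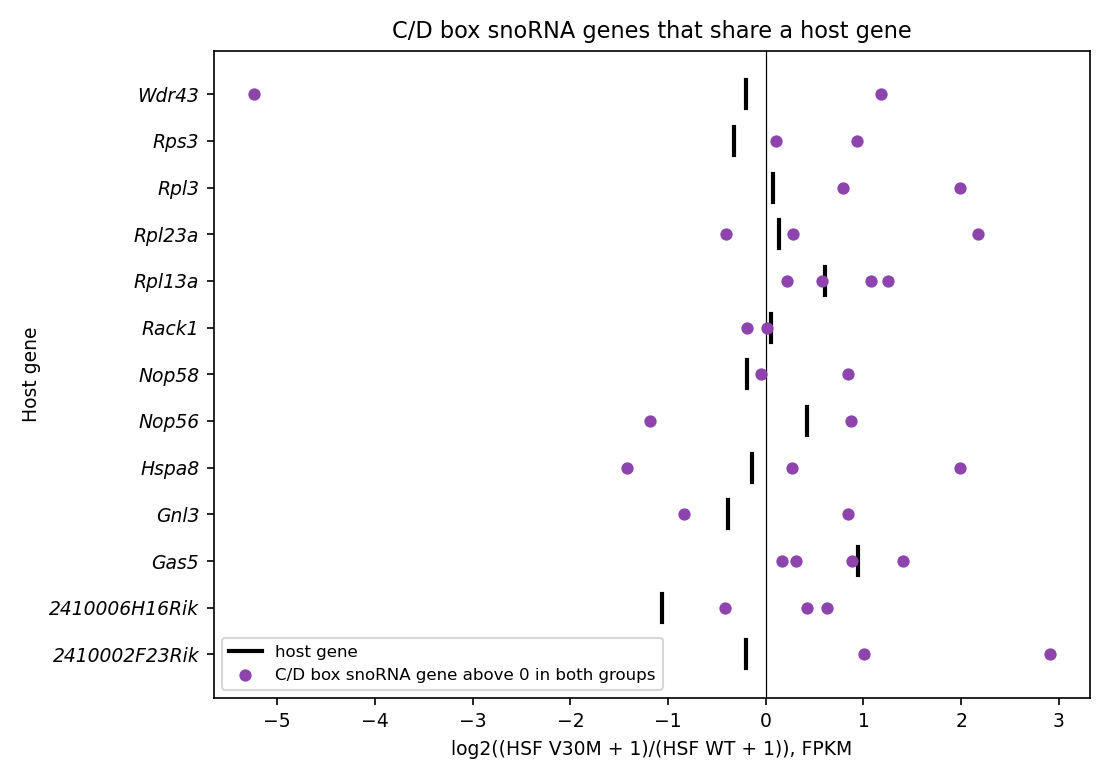
Log2 ratio of the groups (horizontal axis, FPKM + 1, positive where HSF V30M is higher) for C/D box snoRNA genes above 0 in both groups (points), grouped by host gene (vertical axis), with the ratio of the host as a bar. The 13 hosts shown have at least 2 such members, and in 10 of them the members are at least 2-fold apart. In 6 hosts a pair of counting intervals does not overlap.

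None of the genes listed for building and processing these particles that had a ratio differed by 2-fold between the groups. Of the core proteins, Fbl, the methyltransferase fibrillarin, had 14.1 FPKM in HSF V30M and 14.1 FPKM in HSF WT. Nop56 had 31.2 FPKM in HSF V30M and 23.0 FPKM in HSF WT, a log2 ratio of 0.43, and Nop58 had 9.10 and 10.5 FPKM in that order. Snu13, which binds the box C and box D motif, had 14.5 FPKM in HSF V30M and 18.1 FPKM in HSF WT, and Rrp9, a U3 protein, had 10.7 and 12.8 FPKM.
Among assembly factors with a ratio 2 of 7 were higher and 5 lower in HSF V30M, and among maturation factors 2 of 9 were higher and 7 lower. In a list of RNA polymerase I machinery that also held the nucleolar protein genes Ncl and Npm1, 4 of 13 were higher and 9 lower. The medians were -0.08, -0.25 and -0.12 in that order. Over all 15620 genes, 7876 were higher and 7744 lower, with a median of 0.00.

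Marker lists gave the RNA of cell types in the nerve samples. In bulk tissue fewer cells of a type and less RNA per cell cannot be told apart. The gene named first for a list below, apart from the Schwann cell list, is the one with the highest mean FPKM over both groups. All 14 Schwann cell and myelin genes were present. Their summed level was 13529 FPKM in HSF V30M and 11944 FPKM in HSF WT, with Mbp, a myelin protein gene, at 3854 and 3441 FPKM, and none passed 2-fold. Fibroblast genes summed to 2265 and 2360 FPKM, with Dcn at 1331 and 1320 FPKM, and endothelial genes to 340 and 275 FPKM, with Egfl7 at 95.5 and 78.6 FPKM. No gene of these lists was at 0 in both groups.
The lists of other cell types differed between the groups to varying degrees. Erythrocyte genes summed to 292 FPKM in HSF V30M, against 101 FPKM in HSF WT, with Hbb-bs at 111 and 37.1 FPKM, and 5 of 6 with a ratio were at least 2-fold higher in HSF V30M, against 3.98% of all genes. Neutrophil genes summed to 112 and 40.7 FPKM, with S100a9 at 59.0 and 13.8 FPKM. Of these 8 genes 4 were at least 2-fold higher in HSF V30M, again against 3.98% of all genes, while Csf3r, with 2.63 FPKM in HSF V30M and 6.05 FPKM in HSF WT, and Mmp9, with 5.12 and 8.37 FPKM, were lower. Skeletal muscle genes summed to 42.7 FPKM in HSF V30M and 150 FPKM in HSF WT, with Ckm at 8.97 and 43.8 FPKM, with 4 of 6 that had a ratio at least 2-fold lower, against 3.94% of all genes.
B cell genes summed to 3.25 and 25.5 FPKM, with Cd79a at 0.65 and 7.09 FPKM, with 4 of 4 that had a ratio at least 2-fold lower, against 3.94% of all genes. Adipocyte genes summed to 2438 and 3359 FPKM, with Cfd at 1188 and 1467 FPKM, with 7 of 7 lower in HSF V30M and 1 of them past 2-fold, against the same 3.94%. Macrophage genes summed to 403 and 604 FPKM, with Lyz2 at 194 and 266 FPKM, with 2 of 8 higher, 6 lower and 1 past 2-fold, a fall, against the same 3.94%. Over all 15620 genes, 7876 were higher and 7744 lower. No gene of these 6 lists was at 0 in both groups. The part of these cell types in the snoRNA values was not tested.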

How the data were processed

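RNA of sciatic nerve was purified by the authors on RNeasy Mini columns, which retain little RNA of this size, converted to double-stranded cDNA and sequenced from Ion Torrent libraries. The authors aligned the reads to GRCm38, which represents C57BL/6J and not the Sv/129 background. STAR, Cufflinks and Cuffdiff are named, without versions, in the submitters' processing notes. The deposited FPKM values were estimated by the authors with Cuffdiff, which combines the libraries of each group. The authors' table also holds their log2 fold change, test statistic, p-value, q-value and significance call, none of which was used here. Columns were read by number and decimal commas replaced. A total of 23 genes with the status HIDATA (too many alignments) were left out of comparisons, and no member was among them.

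Ratios used a pseudocount of 1. The worth of 1 fragment was fitted from FPKM values that recur among 6983 short genes, with a normal fragment length of mean 172 and SD 67 bases as the best curve. The fit was tested on data simulated from a curve of the same form, at lengths short of that of Snord17. Such a test shows that the fit recovers a curve of this form, and cannot show that the deposited values follow one. Fragment numbers are ranges between the worths, and floors are 3 fragments at the larger worth. Members named were the 10 highest by mean FPKM, the 5 largest rises and 5 largest falls among members above 0 in both groups with a mean of at least 10, the processing, Rpl13a and imprinted lists, those nearest a mean of 1 on each side, and the 3 highest of those at 0 in 1 group. Also named were Snord88a, Snord92, Snord4a, Snord42a and Snord73a, for comparison within or with their hosts. The same holds for Snord93, Snord98, Snord1a and Snord90, listed at 0 in HSF WT. Alternatives for single members did not cover these additions. Members and lists were chosen with earlier results of these data known. Hosts and sequences were taken from GENCODE M21. Software was matplotlib 3.10.9, scipy 1.17.1, pandas 2.3.3, numpy 2.4.6 and Python 3.11.15. Alternatives covered the pseudocount, the minimum mean, scaling, shared loci, status, values of 0, the fold and the highest members. Some sequences, positions and gene values are not reported here.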

Additional observations from a re-analysis of the deposited data

How the results depend on the processing

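The table holds 1 value per group, so neither the spread between mice nor the effect of leaving out a mouse could be computed. No paired analysis was possible because mice have no values of their own and the results come from no test. The median log2 ratio of the C/D box snoRNA genes stayed above 0 in all 12 alternatives, from 0.53 to 0.68. Some of the 12 could not have reversed it. The pseudocounts keep the direction of every member, and leaving out the minimum mean kept the same 78 members. The median moved by more than 0.1 with a minimum mean of 100 (0.53) and with only members above 0 in both groups (0.53). Chosen after seeing the data, it also moved with at least 10 estimated fragments in both groups (0.57) and with members at 0 in 1 group set at their bound or left out (0.53). With only the 4 members alone in their locus, 1 was at least 2-fold higher and 0 lower. With at least 10 fragments, 15 were higher and 3 lower. The other 11 alternatives for each count stayed within 1.5 times. The summed FPKM ratio was 1.45 without the highest member and 1.40 without the 5 highest, and it reversed to 0.924 with FPKM times effective length, where the ratio without Snord17 was 1.65. Median-of-ratios factors were 1.002 and 0.998 over 14238 genes. Of the 32 members named by the stated rules none changed direction. A pseudocount cannot change the direction of a ratio, and the scaling factors were near 1, so direction was not put to the test here. With a pseudocount of 0.1 or 10, 7 members moved. Each of the 7 was under the worth of 1 fragment in a group. Precision is limited by depth. By the lower estimate, 12 members above 0 in HSF V30M and 6 in HSF WT rested on fewer than 3 fragments. Values of near-identical or overlapping members depend on how fragments were divided.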
